A study of Homo sapiens with 8 samples.

Results

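Cytochrome P450s, conjugating enzymes, drug transporters and 3 receptors that regulate them were followed in human hepatoma cells after knockdown of KLHL23, which encodes a kelch-like protein. The set was a fixed list of 53 genes, drawn up by name and function with earlier results of these data known. Of these, 46 had a probe set (a group of oligonucleotides for 1 transcript) paired with that gene alone and were measured, out of 19775 such genes on the array. CYP2C18, CYP2C19, CYP3A7, UGT2B7, UGT2B10, UGT2B11 and the receptor NR1I2 were not analysed here, because no probe set was paired with any of them alone.

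The cells were Hep-3B and Huh7, both established human hepatoma lines. Both received lentivirus at an MOI (infectious units per cell) of 2 in medium holding 10% FBS, and puromycin selection began 48 hours later. The control virus carried shLuc, a short hairpin RNA against luciferase, which human cells lack. The knockdown virus carried shKLHL23, so hairpin expression and drug selection were shared by all 4 groups, Hep-3B-shLuc, Hep-3B-shKLHL23, Huh7-shLuc and Huh7-shKLHL23. Each group had 2 arrays, labelled replicates 1 and 3. Only 1 name is given for the KLHL23 hairpin, so loss of KLHL23 and effects of that hairpin on other transcripts cannot be told apart.

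Hepatocytes clear drugs, hormones and bile acids in steps. Cytochrome P450s and flavin monooxygenases add or uncover a polar group, carboxylesterases split esters, and transferases attach glucuronic acid, sulfate or an acetyl group. Uptake transporters bring substrates in from the blood, and ABC transporters export the conjugates to bile or back to blood. The nuclear receptors PXR (NR1I2) and CAR (NR1I3) and the aryl hydrocarbon receptor AHR switch on many of these genes when foreign compounds bind. Hepatoma lines keep only some of this equipment, and lines differ in which genes they keep.

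KLHL23 lay at 65.5% and 31.4% of its control mean on replicates 1 and 3 of the Hep-3B knockdown, and at 23.4% and 25% in Huh7. The weaker knockdown was thus on 1 Hep-3B array. By limma the KLHL23 difference was called in Huh7 (-2.05, adjusted p = 0.00363) and not in Hep-3B (-1.14, adjusted p = 0.0833). All 12 hepatocyte markers lay above the array median in every group, with mean levels between 10.96 and 11.41 on the log2 scale. The hepatocyte marker TTR rose in both lines (1.58 and 1.23, limma adjusted p = 0.0148 and 0.00524), and FGA rose in Huh7 (0.38, adjusted p = 0.0379). Cholangiocyte markers had 4 of 6 above the median in every group. In Huh7 KRT19 rose by 1.32 (limma adjusted p = 0.00212) and EPCAM by 0.36 (adjusted p = 0.0293), while SOX9 fell by 0.56 (adjusted p = 0.0208). Mean levels of the stellate cell, endothelial and blood lists lay between 3.99 and 5.45, with their members LUM, CDH5 and PTPRC below the lower quartile on all 8 arrays. Other members were brighter. Depending on the group, 3 or 4 of 6 stellate, 2 or 3 of 6 endothelial and 2 or 3 of 5 measured blood markers lay above the median. The endothelial marker LYVE1 nevertheless rose in Hep-3B (1.30, limma adjusted p = 0.0290), and the stellate marker ACTA2 lay at 9.06 to 9.36 in Hep-3B against 4.68 to 5.14 in Huh7. The 3′ minus 5′ difference of the ACTB control probes, which grows as RNA breaks down, stood at 0.44 and 0.54 in Hep-3B controls against 0.74 and 0.75 in the knockdown. In Huh7 it was 0.87 and 0.83 in controls against 0.52 and 0.55, so it moved the opposite way. For GAPDH it was 0.12 on both Hep-3B controls against 0.22 and 0.24 after knockdown, and in Huh7 0.13 and 0.09 against 0.15 and 0.11, which overlapped. The part of these marker and RNA differences in the results was not tested.

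Levels are the deposited log2 values from RMA, which gives the probe intensities of all arrays 1 distribution, and differences are knockdown minus control on that scale. A level depends on the probes, so it was compared between arrays and never between genes. Of the 46 measured genes, 24 lay above the array median on all 8 arrays and 9 below it on all 8. The dim ones were CYP1B1, CYP2B6, CYP2C8, CYP2E1, FMO1, UGT2B15, NR1I3, SLCO1B1 and SLCO1B3. CYP2C8 and SLCO1B3 lay below the lower quartile on every array, where a change in RNA would move the value little. For 17 genes the probe set used has the suffix _s_at or _x_at, given to probes that can bind related transcripts.

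**Figure D1:**
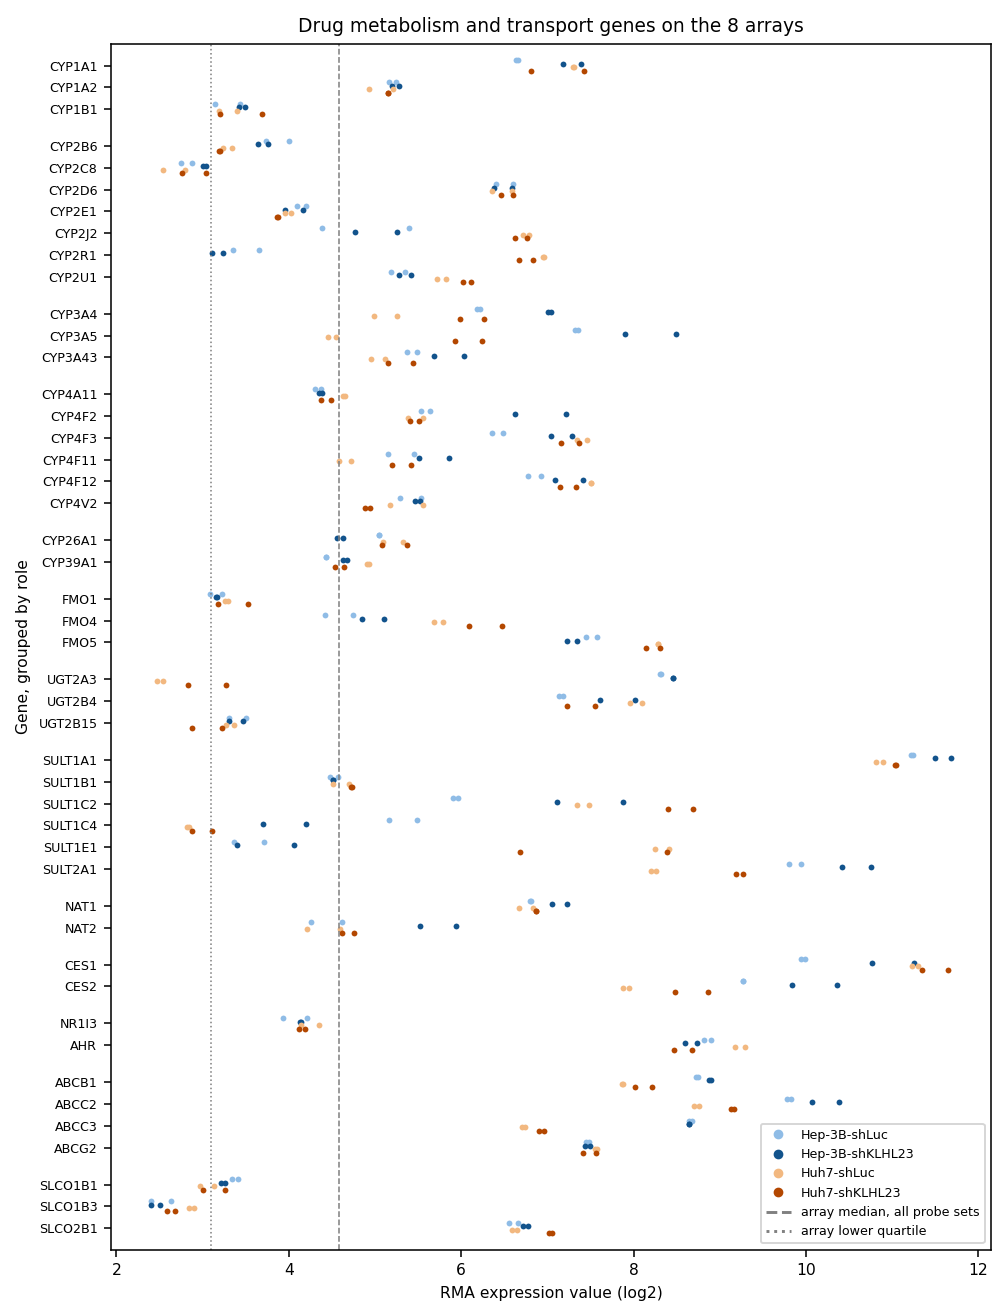
Level of each of the 46 measured genes on the 8 arrays (horizontal axis, RMA value, log2), grouped by role on the vertical axis, with 2 points for each of 4 groups; the dashed and dotted lines mark the array median and lower quartile over all probe sets. UGT2A3 sits at 8.31 and 8.32 in Hep-3B controls and at 2.47 and 2.54 in Huh7 controls, and CYP2C8 and SLCO1B3 stay left of the dotted line on all arrays.

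In Hep-3B 8 of the 46 genes changed on knockdown, 7 up and 1 down, at a limma adjusted p under 0.05 over all genes. In that comparison 0.693% of all genes were called, 0.536% higher and 0.157% lower. CYP3A4, CYP4F2, CYP4F3, SULT1C2, SULT2A1, NAT2 and CES1 rose, and SULT1C4 fell. In Huh7 12 genes changed, 9 up and 3 down, where 13.5% of all genes were called, 5.75% higher and 7.73% lower. CYP3A4, CYP3A5, CYP4F11, UGT2A3, SULT1C2, SULT2A1, CES2, ABCC2 and SLCO2B1 rose there, and CYP39A1, UGT2B4 and AHR fell. The monooxygenase CYP3A4 and the sulfotransferases SULT1C2 and SULT2A1 were called in both lines, all 3 higher. Of all genes, 0.182% were called higher in both lines.

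The mean of both lines' differences gave 17 calls, 15 up and 2 down, where 15.6% of all genes were called, 7.6% higher and 8.02% lower. FMO4 and SULT1A1 were called by that mean and in neither line alone. The median difference of the 46 genes was 0.15 in Hep-3B and 0.08 in Huh7, against 0.02 and 0.00 for all genes. In Hep-3B the knockdown and control arrays did not overlap for 23 genes higher and 6 lower, against 29.4% and 23.5% of all genes and 53% in either direction. In Huh7 they did not overlap for 20 genes higher and 11 lower, against 26.5% and 27.2% of all genes and 53.7% in either direction. A lack of overlap is thus common on these arrays. Both knockdown arrays lay above both controls for 16 of the 46 genes in both lines (12.4% of all genes did so) and below them for 2 (11.7% of all genes). Of the set, 17 genes were called in either line and 29 in neither. Of all genes, 0.693% were called in Hep-3B and 13.5% in Huh7.

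Single arrays bore on these counts. The number of all genes called in the same comparisons mostly moved in the same direction, but not under every omission and not in proportion. Whether these shifts were particular to the set was not tested. In Hep-3B 0 genes of the set passed the limma test without Hep-3B control replicate 1, Hep-3B control replicate 3, Hep-3B knockdown replicate 3, Huh7 control replicate 1 or Huh7 control replicate 3, although 15 to 21 still had an unadjusted p under 0.05. Without either Huh7 knockdown array 2 passed, and without Hep-3B knockdown replicate 1, the array with most KLHL23 left, 14 passed. In Huh7 3 passed without control replicate 1, 4 without control replicate 3 and 7 without knockdown replicate 1. CYP3A4, CYP3A5 and SULT2A1 were called in Huh7 under each of the 8 omissions. By the mean of both lines 9 genes were called under each omission, CYP3A4, CYP3A5, CYP4F2, SULT1C2, SULT2A1, NAT2, CES1, CES2 and AHR. That count was 9 without Huh7 control replicate 1, 10 without Hep-3B control replicate 3, and 11 without Hep-3B knockdown replicate 3 or Huh7 control replicate 3.

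All 8 genes called in Hep-3B lay farther from the controls on knockdown replicate 3 than on replicate 1. The same held for 97.8% of the 137 genes called there and for 66.4% of all genes. Replicate 3 was the array with less KLHL23, and the part of knockdown depth in these values was not tested. In Huh7, where KLHL23 was about equal on both arrays, 6 of the 12 called genes lay farther on replicate 3, against 33.9% of all genes called there and 45% of all genes.

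**Figure D2:**
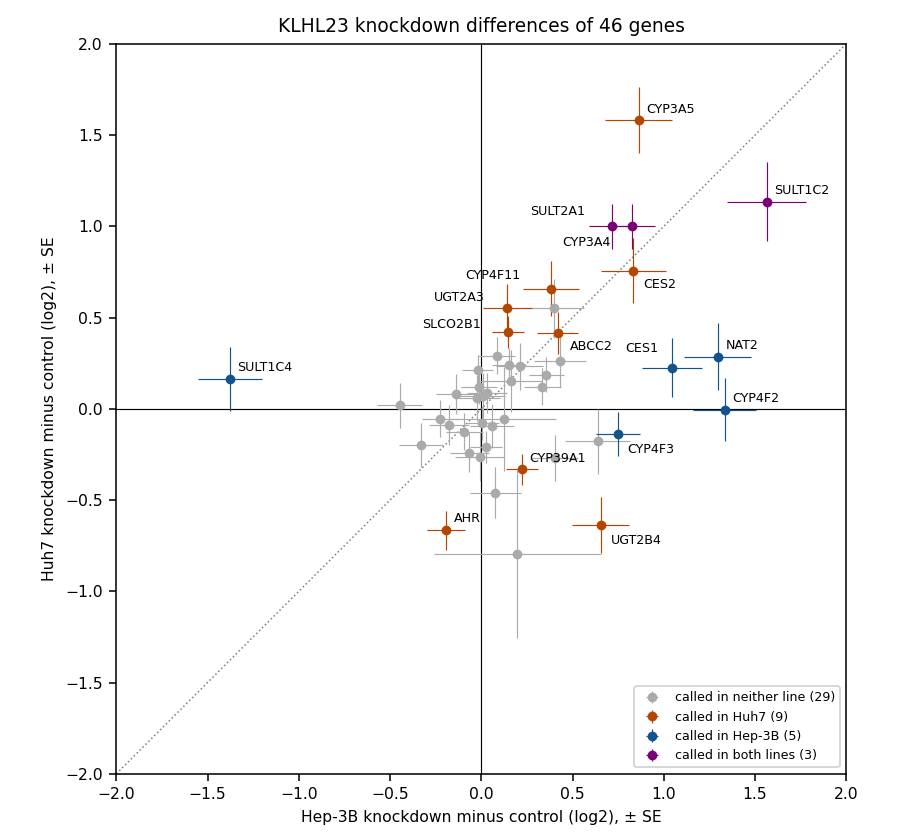
Knockdown minus control difference of each of the 46 genes in Hep-3B (horizontal axis) and in Huh7 (vertical axis), log2, with bars of 1 SE from limma; colours show in which line a gene was called and the dotted line marks equal differences. SULT1C2, SULT2A1 and CYP3A4 lie right and high, CYP4F2 lies at 1.33 and 0.00, UGT2B4 at 0.65 and -0.64, and SULT1C4 alone lies far left at -1.38.

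The CYP3A enzymes oxidise a large share of prescribed drugs. CYP3A5 rose in Huh7 by 1.58, the largest rise of any member there, and CYP3A4 was called higher in both lines on 1 of its probe sets. The genes are neighbours on chromosome 7, in the order CYP3A5, CYP3A7, CYP3A4, CYP3A43. Their upstream sequences are shown because both genes had a called probe set and because the window of each holds a half-site for PXR and CAR. The RefSeq promoter table (GRCh38.p14) gave the 250 bases before each start, at chr7:99784185-99784434 for CYP3A4 and chr7:99679997-99680246 for CYP3A5, both on the minus strand. Capitals mark AGTTCA read on either strand.
CYP3A4: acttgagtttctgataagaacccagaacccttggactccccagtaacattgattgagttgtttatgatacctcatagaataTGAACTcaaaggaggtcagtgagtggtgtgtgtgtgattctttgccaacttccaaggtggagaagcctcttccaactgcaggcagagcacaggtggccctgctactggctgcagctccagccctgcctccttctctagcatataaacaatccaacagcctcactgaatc
CYP3A5: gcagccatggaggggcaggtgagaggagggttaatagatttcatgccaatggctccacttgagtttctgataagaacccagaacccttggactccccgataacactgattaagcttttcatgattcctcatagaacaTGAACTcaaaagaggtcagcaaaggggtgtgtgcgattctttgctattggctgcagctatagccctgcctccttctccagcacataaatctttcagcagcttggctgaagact
Each window held 1 match to AGTTCA, read on the opposite strand as TGAACT. It lay 164 to 169 bases before the start in CYP3A4 and 108 to 113 bases before it in CYP3A5. Other forms of the half-site were not searched for, so further half-sites may lie in these windows. The longest run of identical bases between the windows was 41. A match of letters is a description and no evidence of binding.

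CYP3A5 lay at 4.46 and 4.54 in Huh7 controls and at 6.24 and 5.93 after knockdown. In Hep-3B it lay at 7.35 and 7.32 in controls and at 7.90 and 8.50 after knockdown. Both knockdown arrays were above both controls in each line, and the Huh7 knockdown arrays stayed below every Hep-3B array. The rise in Huh7 was 1.58 (SE 0.18, limma adjusted p = 0.00219), or 2.99-fold. The Hep-3B difference was 0.86 (SE 0.18, limma adjusted p = 0.0727) and was not called. The gap between the lines' differences, 0.72, was not called either (limma adjusted p = 0.240).

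All 4 probe sets of CYP3A5 were called higher in Huh7 when every probe set was tested, with differences from 0.96 to 1.67. In Hep-3B 2 of the 4 were called, at 1.29 and 1.52, and the others stood at 0.59 and 0.86. The gene's rise in Huh7 was therefore seen by each set of probes designed for it.

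CYP3A4 lay at 6.22 and 6.18 in Hep-3B controls and at 7.01 and 7.04 after knockdown. In Huh7 it lay at 5.25 and 4.99 in controls and at 6.26 and 5.98 after knockdown. The arrays did not overlap in either line. The differences were 0.83 in Hep-3B (SE 0.12, limma adjusted p = 0.0345) and 0.999 in Huh7 (SE 0.12, limma adjusted p = 0.00292). Only 1 of its 5 probe sets was called, and that set ends in _x_at. The other 4 differed by -0.10 to 0.38 in Hep-3B and by -0.10 to 0.19 in Huh7. Without probe sets of the suffixes _x_at and _s_at the Hep-3B difference was -0.01 (limma adjusted p = 0.990) and the Huh7 difference 0.19 (limma adjusted p = 0.415). Cross-hybridisation to other CYP3A transcripts was not tested, so the rise belongs to the probe set and cannot be assigned to CYP3A4 alone.

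CYP3A43, a CYP3A enzyme with low activity, lay at 5.38 and 5.48 in Hep-3B controls and at 5.69 and 6.03 after knockdown. It was not called in either line (0.43 and 0.26, limma adjusted p = 0.166 and 0.289), and all 4 of its probe sets end in _x_at.

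**Figure D3:**
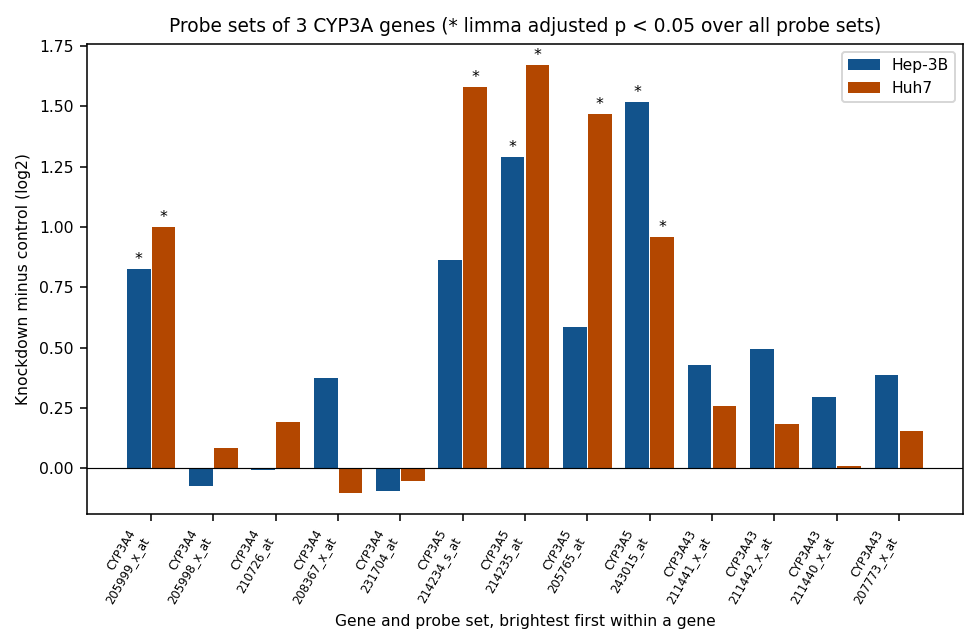
Knockdown minus control difference (vertical axis, log2) of every probe set of CYP3A4, CYP3A5 and CYP3A43 (horizontal axis, brightest first within a gene) in Hep-3B and Huh7; a star marks a limma adjusted p under 0.05 over all probe sets. All 4 CYP3A5 probe sets carry a star in Huh7, and 1 of 5 CYP3A4 probe sets carries one.

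The sulfotransferases attach sulfate to phenols, steroids and bile acids. Of 6 measured members 2 rose and 1 fell in Hep-3B, and 2 rose in Huh7. SULT1C2 rose in both lines and its neighbour on chromosome 2, SULT1C4, fell in Hep-3B. SULT2A1, which sulfates dehydroepiandrosterone and bile acids, rose in both. Their upstream windows are shown to set the neighbours that moved apart beside the gene that moved with SULT1C2. They lie at chr2:108288645-108288894 (plus strand) for SULT1C2, chr2:108377704-108377953 (plus strand) for SULT1C4 and chr19:47886316-47886565 (minus strand) for SULT2A1, with the same half-site in capitals.
SULT1C2: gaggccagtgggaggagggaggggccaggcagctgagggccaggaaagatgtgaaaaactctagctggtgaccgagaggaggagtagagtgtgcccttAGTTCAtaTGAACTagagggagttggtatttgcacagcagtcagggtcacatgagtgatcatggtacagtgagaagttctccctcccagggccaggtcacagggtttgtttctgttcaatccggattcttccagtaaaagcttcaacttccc
SULT1C4: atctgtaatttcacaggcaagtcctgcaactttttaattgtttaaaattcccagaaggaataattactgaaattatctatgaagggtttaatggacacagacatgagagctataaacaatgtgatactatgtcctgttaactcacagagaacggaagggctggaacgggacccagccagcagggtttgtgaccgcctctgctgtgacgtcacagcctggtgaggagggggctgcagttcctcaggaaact
SULT2A1: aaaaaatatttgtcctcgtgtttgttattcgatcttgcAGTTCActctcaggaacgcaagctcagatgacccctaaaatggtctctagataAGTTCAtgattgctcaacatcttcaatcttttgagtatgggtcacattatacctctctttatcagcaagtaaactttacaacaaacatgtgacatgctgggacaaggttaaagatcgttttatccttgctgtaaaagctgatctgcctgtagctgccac
The SULT1C2 window held 2 matches to AGTTCA facing each other, at 147 to 152 and 139 to 144 bases before the start. The SULT2A1 window held 2 on the same strand, at 207 to 212 and 154 to 159 bases before it. The letters did not occur in the SULT1C4 window, which says nothing about regulation elsewhere.

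The half-site AGTTCA was searched on both strands beside GCGTG (the core bound by AHR with ARNT), GTTAAT (an HNF1 half-site), CAAAGT (an HNF4 core) and TTGCNNAA (a C/EBP core). No match printed here overlapped one of another motif. AGTTCA occurred in 8.80% of all 35116 windows. It occurred in 5 of 14 windows (35.7%) of genes called higher in either line, those of CYP3A4, CYP3A5, SULT1C2, SULT2A1 and UGT2A3. Of 34 windows of the other measured genes 4 (11.8%) held it. GCGTG occurred in 32.2% of all windows and 7.14% of windows of genes called higher, GTTAAT in 6.23% and 7.14%, CAAAGT in 10.3% and 21.4%, and TTGCNNAA in 9.05% and 7.14%. These shares are descriptions of few windows, and the motifs were chosen with earlier results of these data known. CYP3A4 and CYP3A5 share a run of 41 bases, so their windows are not independent. CYP3A4 is counted although its rise cannot be assigned to it alone, and UGT2A3 although it lay near the bottom of the scale in Huh7. The shares therefore cannot tell whether the half-site goes with a rise.

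SULT1C2 lay at 5.96 and 5.91 in Hep-3B controls and at 7.12 and 7.88 after knockdown. Its Huh7 levels were 7.34 and 7.48 in controls and 8.40 and 8.69 after knockdown. The knockdown arrays were higher without overlap in both lines, and the Hep-3B knockdown reached the level of Huh7 controls. The rise was 1.56 in Hep-3B (SE 0.22, limma adjusted p = 0.0258), or 2.96-fold, and 1.13 in Huh7 (SE 0.22, limma adjusted p = 0.0126), or 2.20-fold. Of its 4 probe sets, 3 were called higher in both lines, and without suffixed probe sets the Huh7 rise was 0.74 (limma adjusted p = 0.0140).

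SULT2A1 lay at 9.94 and 9.80 in Hep-3B controls and at 10.42 and 10.75 after knockdown. Huh7 controls lay at 8.20 and 8.26 and the knockdown arrays at 9.27 and 9.19. It too rose without overlap in both lines, and both of its probe sets were called in both. The rise was 0.71 in Hep-3B (SE 0.12, limma adjusted p = 0.0461) and 0.999 in Huh7 (SE 0.12, limma adjusted p = 0.00276).

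SULT1C4, a sulfotransferase of phenols, lay at 5.16 and 5.49 in Hep-3B controls and at 4.20 and 3.70 after knockdown. In Huh7 it lay at 2.84 and 2.82 in controls and at 2.88 and 3.11 after knockdown, near the bottom of the scale. It fell by 1.38 in Hep-3B (SE 0.18, limma adjusted p = 0.0210), or 2.60-fold, and differed by 0.16 in Huh7. Since 3 Huh7 arrays lay below the lower quartile, a fall there could hardly have been seen.

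SULT1A1, the main phenol sulfotransferase of liver, lay at 11.25 and 11.22 in Hep-3B controls and at 11.50 and 11.68 after knockdown. In Huh7 it lay at 10.82 and 10.89 in controls and at 11.04 on both knockdown arrays. It rose by the mean of both lines (0.27, SE 0.07, limma adjusted p = 0.0289), a small step without overlap, on probes that its near-identical SULT1A neighbours could share. On its only probe set without such a suffix the mean difference was 0.02 (limma adjusted p = 0.910), and the call was lost without any of 6 arrays, every array but Hep-3B knockdown replicate 1 and Huh7 knockdown replicate 3. SULT1B1, which sulfates thyroid hormones and phenols, differed by -0.01 and 0.12. SULT1E1, the estrogen sulfotransferase, lay at 6.68 and 8.39 on the 2 Huh7 knockdown arrays, the widest replicate gap of any member, and was not called.

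**Figure D4:**
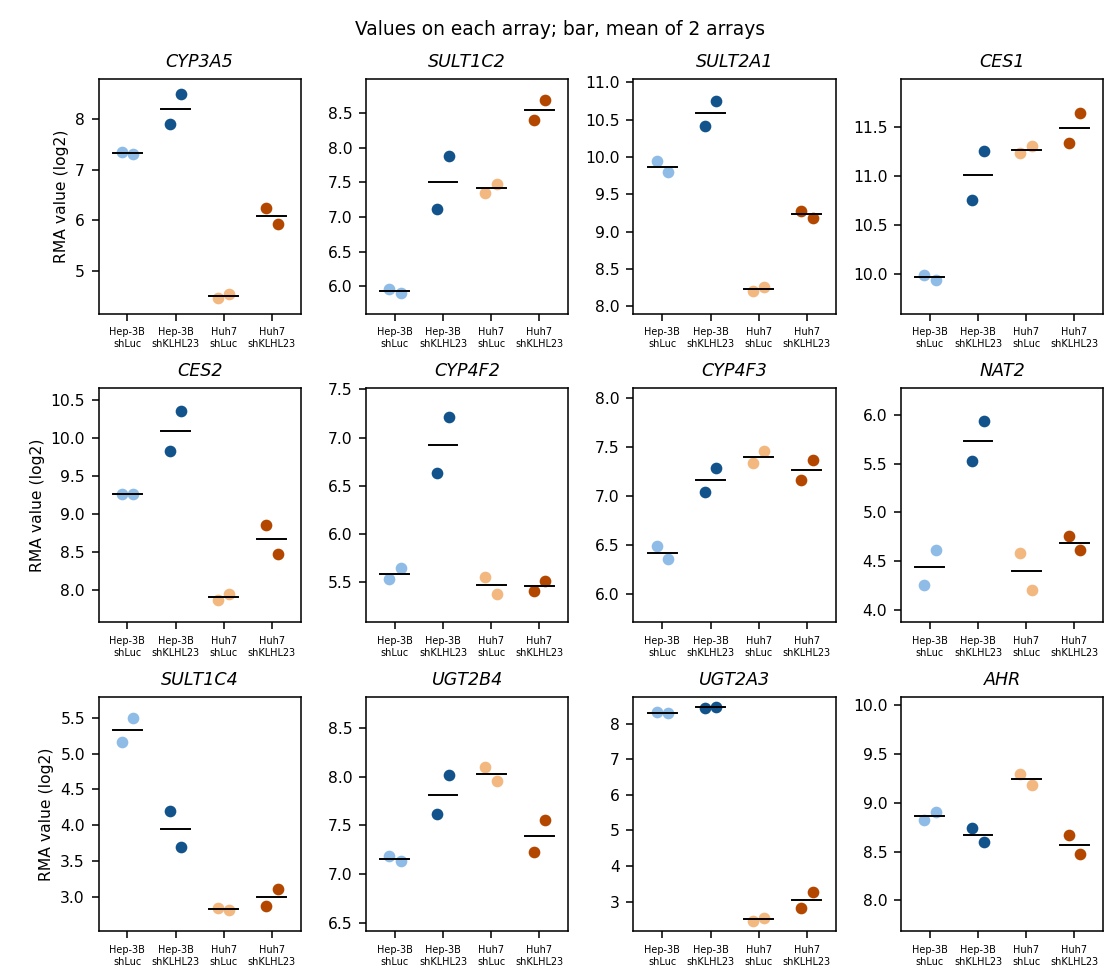
Level (vertical axis, RMA value, log2, with its own range in each panel) of 12 called genes on the 8 arrays, 1 panel a gene; points are arrays and bars are means of 2 arrays. SULT1C2 and SULT2A1 step up in both lines, CYP4F2 and NAT2 step up in Hep-3B, SULT1C4 steps down in Hep-3B, and UGT2B4 lies above its controls in Hep-3B and below them in Huh7.

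Within the CYP4 family, whose members hydroxylate the far end of fatty acids and eicosanoids, CYP4F2 and CYP4F3 rose in Hep-3B and CYP4F11 rose in Huh7. CYP4F2, which also acts on vitamins E and K, lay at 5.54 and 5.64 in Hep-3B controls and at 6.63 and 7.22 after knockdown. In Huh7 its 4 arrays lay at 5.55 and 5.38 in controls and at 5.41 and 5.51 after knockdown, so they overlapped. The rise in Hep-3B was 1.33 (SE 0.17, limma adjusted p = 0.0211), or 2.52-fold, on the only probe set of the gene, which ends in _x_at.

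CYP4F3, a leukotriene hydroxylase, lay at 6.49 and 6.35 in Hep-3B controls and at 7.05 and 7.29 after knockdown. Its Huh7 levels were 7.34 and 7.46 in controls and 7.16 and 7.36 after knockdown. It rose by 0.75 in Hep-3B (SE 0.12, limma adjusted p = 0.0396), toward the Huh7 level, and differed by -0.14 in Huh7, where the arrays overlapped.

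CYP4F11, which hydroxylates long-chain fatty acids, lay at 4.58 and 4.72 in Huh7 controls and at 5.20 and 5.42 after knockdown. Its Hep-3B levels were 5.45 and 5.15 in controls and 5.51 and 5.86 after knockdown. It rose by 0.66 in Huh7 (SE 0.15, limma adjusted p = 0.0243) and differed by 0.38 in Hep-3B (limma adjusted p = 0.237). CYP4F12, next to CYP4F3 on chromosome 19, differed by 0.40 and -0.27 and was not called, and neither were CYP4A11 and CYP4V2. When every probe set was tested, dimmer CYP4V2 probe sets were called higher by the mean (0.53 and 0.34, limma adjusted p = 0.0338 and 0.0209). A further one was not (0.02). In Huh7 the called ones differed by 0.47 and 0.29, against -0.46 on the one used, none of them called there.

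Of the CYP1 and CYP2 families 0 of 10 measured genes were called in either line or by the mean; at an unadjusted p under 0.05, limma gave 1 of 3 CYP1 and 1 of 7 CYP2 genes in Hep-3B, 0 and 1 in Huh7, and 0 and 3 by the mean. CYP1A1, which AHR induces, lay at 6.66 and 6.63 in Hep-3B controls and at 7.18 and 7.39 after knockdown. Huh7 controls lay at 7.29 and 7.31 and the knockdown arrays at 7.43 and 6.81, on both sides of them. Its differences were 0.64 (SE 0.18, limma adjusted p = 0.116) and -0.18 (limma adjusted p = 0.589). CYP2B6 and CYP2C8, which CAR and PXR induce, differed by -0.18 and 0.21 in Hep-3B and by -0.09 and 0.23 in Huh7, at dim levels. CYP2D6, an enzyme of many heart and brain drugs, differed by -0.02 and 0.06. CYP2U1, a fatty acid hydroxylase, differed by 0.29 in Huh7 on the probe set used, but a dimmer one was called there (1.02, limma adjusted p = 0.0388) and by the mean (0.79, limma adjusted p = 0.0244) when every probe set was tested.

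CYP39A1, an oxysterol hydroxylase of bile acid synthesis, lay at 4.91 and 4.93 in Huh7 controls and at 4.64 and 4.54 after knockdown. In Hep-3B it lay at 4.43 on both controls and at 4.68 and 4.62 after knockdown. It fell by 0.33 in Huh7 (SE 0.09, limma adjusted p = 0.0386). Its arrays did not overlap in either line, in opposite directions, yet the gap between the lines' differences was not called (-0.55, limma adjusted p = 0.0782). When limma tested every probe set, the Huh7 call of this one was lost (adjusted p = 0.0673). A dimmer probe set of the gene was called there in that test (-0.76, limma adjusted p = 0.00815), and so was its gap between the lines (-0.95, limma adjusted p = 0.0462). CYP26A1, which breaks down retinoic acid, differed by -0.45 in Hep-3B (limma adjusted p = 0.113) and 0.02 in Huh7.

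FMO4, a flavin monooxygenase, lay at 4.42 and 4.74 in Hep-3B controls and at 4.85 and 5.11 after knockdown. In Huh7 it lay at 5.78 and 5.68 in controls and at 6.48 and 6.09 after knockdown. No arrays overlapped in either line, and it rose by the mean of both (0.48, SE 0.11, limma adjusted p = 0.0256). Its neighbour FMO1 differed by 0.01 and 0.07, and FMO5 by -0.22 and -0.05.

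Among the glucuronosyltransferases, 3 of which were measured, UGT2A3 rose and UGT2B4 fell in Huh7. UGT2B4, which conjugates bile acids and steroids, lay at 8.10 and 7.95 in Huh7 controls and at 7.23 and 7.56 after knockdown. Hep-3B controls lay at 7.18 and 7.13 and the knockdown arrays at 7.61 and 8.01, so it moved apart from the controls without overlap in opposite directions. It fell by 0.64 in Huh7 (SE 0.15, limma adjusted p = 0.0294) and differed by 0.65 in Hep-3B (limma adjusted p = 0.0833).

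UGT2A3 lay at 2.47 and 2.54 in Huh7 controls and at 2.84 and 3.27 after knockdown. In Hep-3B it lay at 8.32 and 8.31 in controls and at 8.45 and 8.46 after knockdown. The Huh7 rise was 0.55 (SE 0.13, limma adjusted p = 0.0301), but 3 of those arrays lay below the lower quartile, so its true size is uncertain. Without Huh7 knockdown replicate 3 it was 0.33 and not called (limma adjusted p = 0.0567). The Hep-3B difference was 0.14 and not called. UGT2B15, which conjugates androgens, was dim in both lines and differed by -0.01 and -0.26.

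NAT2, which acetylates arylamine drugs such as isoniazid, lay at 4.26 and 4.62 in Hep-3B controls and at 5.53 and 5.94 after knockdown. Its Huh7 levels were 4.59 and 4.21 in controls and 4.76 and 4.61 after knockdown. It rose by 1.30 in Hep-3B (SE 0.18, limma adjusted p = 0.0272), or 2.46-fold, from controls around the array median. The Huh7 difference was 0.29 and not called, and neither was NAT1, its neighbour on chromosome 8, which acts on other arylamines (0.33 and 0.12).

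Both carboxylesterases rose by the mean of both lines. CES1, which hydrolyses ester prodrugs and cholesteryl esters, lay at 9.99 and 9.94 in Hep-3B controls and at 10.76 and 11.25 after knockdown. Huh7 controls lay at 11.23 and 11.30 and the knockdown arrays at 11.34 and 11.65, so the Hep-3B knockdown moved toward the Huh7 level. It rose by 1.04 in Hep-3B (SE 0.16, limma adjusted p = 0.0396), or 2.06-fold, and differed by 0.23 in Huh7 (limma adjusted p = 0.437).

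CES2, which activates irinotecan, lay at 7.88 and 7.95 in Huh7 controls and at 8.86 and 8.48 after knockdown. In Hep-3B it lay at 9.26 on both controls and at 9.83 and 10.36 after knockdown. It rose by 0.76 in Huh7 (SE 0.18, limma adjusted p = 0.0263). The Hep-3B difference, 0.83 (limma adjusted p = 0.0728), was as large and not called; 2 dimmer probe sets of the gene were called there at 0.82 and 0.95 when every probe set was tested.

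Of the receptors, AHR fell in Huh7. It lay at 9.30 and 9.18 in Huh7 controls and at 8.67 and 8.47 after knockdown. Its Hep-3B levels were 8.82 and 8.90 in controls and 8.74 and 8.60 after knockdown. The fall was 0.67 in Huh7 (SE 0.11, limma adjusted p = 0.00683), or 1.59-fold, and the Hep-3B difference was -0.19 (limma adjusted p = 0.403), without overlap in either line.

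NR1I3, the receptor CAR, lay at 3.93 and 4.22 in Hep-3B controls and at 4.14 and 4.12 after knockdown. In Huh7 it lay at 4.14 and 4.35 in controls and at 4.19 and 4.12 after knockdown. These values were below the array median on all 8 arrays and overlapped in both lines.

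Among the transporters ABCC2 and SLCO2B1 rose in Huh7, and 0 of 7 were called in Hep-3B, where limma gave 1 at an unadjusted p under 0.05. ABCC2, which exports conjugates into bile, lay at 8.71 and 8.76 in Huh7 controls and at 9.17 and 9.13 after knockdown. Hep-3B controls lay at 9.83 and 9.78 and the knockdown arrays at 10.07 and 10.38. The differences were alike, 0.42 in each line (SE 0.11), with a limma adjusted p of 0.0445 in Huh7 and 0.109 in Hep-3B. The Huh7 call was lost when every probe set was tested (limma adjusted p = 0.0648) and without any of 6 arrays, both Hep-3B controls and all Huh7 arrays.

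SLCO2B1, an uptake transporter of organic anions, lay at 6.58 and 6.65 in Huh7 controls and at 7.02 and 7.05 after knockdown. In Hep-3B it lay at 6.66 and 6.55 in controls and at 6.72 and 6.77 after knockdown. It rose by 0.42 in Huh7 (SE 0.09, limma adjusted p = 0.0177) and differed by 0.14 in Hep-3B. The drug exporters ABCB1 and ABCG2 differed by 0.24 and -0.08 in Huh7 and were not called, nor was ABCC3 (0.21). SLCO1B1 and SLCO1B3, the uptake transporters of statins, were dim in both lines and differed by -0.24 to 0.08.

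The knockdown differences of 3 genes differed between the lines by a test of the difference itself, where 1.26% of all genes were called, 0.445% higher and 0.814% lower. SULT1C4 was higher in that contrast (Huh7 minus Hep-3B, 1.54, SE 0.25, limma adjusted p = 0.0349), since it fell in Hep-3B. Its Huh7 arrays lay near the bottom of the scale, where a fall could hardly have been seen. The SULT1C4 gap therefore cannot tell whether the lines responded differently. CYP4F2 (-1.34, SE 0.24, limma adjusted p = 0.0449) and UGT2B4 (-1.29, SE 0.22, limma adjusted p = 0.0396) were lower in the same contrast. CYP4F3 stood just outside (-0.89, limma adjusted p = 0.0511). These calls were fragile: 0 were made without either Hep-3B control array, Hep-3B knockdown replicate 3 or either Huh7 control array, although 10 to 14 genes kept an unadjusted p under 0.05, and 1 was made without Huh7 knockdown replicate 1. For the other called genes, a call in 1 line and none in the other is no evidence that the lines differed.

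The control cells themselves differed in most of the set. Of the 46 genes 28 differed between Huh7-shLuc and Hep-3B-shLuc, 16 higher in Huh7 and 12 lower, where 32.7% of all genes were called, 17.7% higher and 14.9% lower. Each line is 1 cell line, so a difference belongs to these lines. This comparison shares its control arrays with the knockdown comparisons.

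UGT2A3 lay at 8.32 and 8.31 in Hep-3B against 2.47 and 2.54 in Huh7 (-5.81, SE 0.13, limma adjusted p = 2.23e-08). CYP3A5 was lower in Huh7 by 7.13-fold (-2.83, SE 0.18, limma adjusted p = 6.62e-06) and SULT1C4 was lower too (-2.50). For UGT2A3 and SULT1C4 the Huh7 controls lay below the lower quartile, where a value need not be above background, so the true size of either gap is unknown. The basolateral exporter ABCC3, at 8.64 and 8.68 in Hep-3B against 6.74 and 6.70 in Huh7, was lower by 3.85-fold (-1.94), but the difference was -0.38 (limma adjusted p = 0.0155) on its only unsuffixed probe set. SULT2A1 (-1.64), CES2 (-1.35), the CYP3A4 probe set (-1.08) and ABCC2 (-1.07) were lower in Huh7 as well. The CYP3A4 gap was 0.02 (limma adjusted p = 0.923) without the suffixed probe sets.

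Higher in Huh7 were SULT1E1, at 3.36 and 3.71 in Hep-3B against 8.41 and 8.25 (4.79, SE 0.46, limma adjusted p = 7.14e-05), and CYP2R1, a vitamin D hydroxylase, at 3.65 and 3.35 against 6.95 and 6.96 (3.45, SE 0.12, limma adjusted p = 2.09e-07). With the probe sets of a gene averaged, the CYP2R1 gap was 1.67 (limma adjusted p = 6.44e-06). CYP2J2, an epoxygenase of arachidonic acid, lay at 4.38 and 5.40 in Hep-3B controls, the widest gap between control replicates, and at 6.79 and 6.72 in Huh7 (1.86, SE 0.29). SULT1C2 (1.48), CES1 (1.30), FMO4 (1.15), CYP4F3 (0.98) and UGT2B4 (0.87) were higher in Huh7 too.

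**Figure D5:**
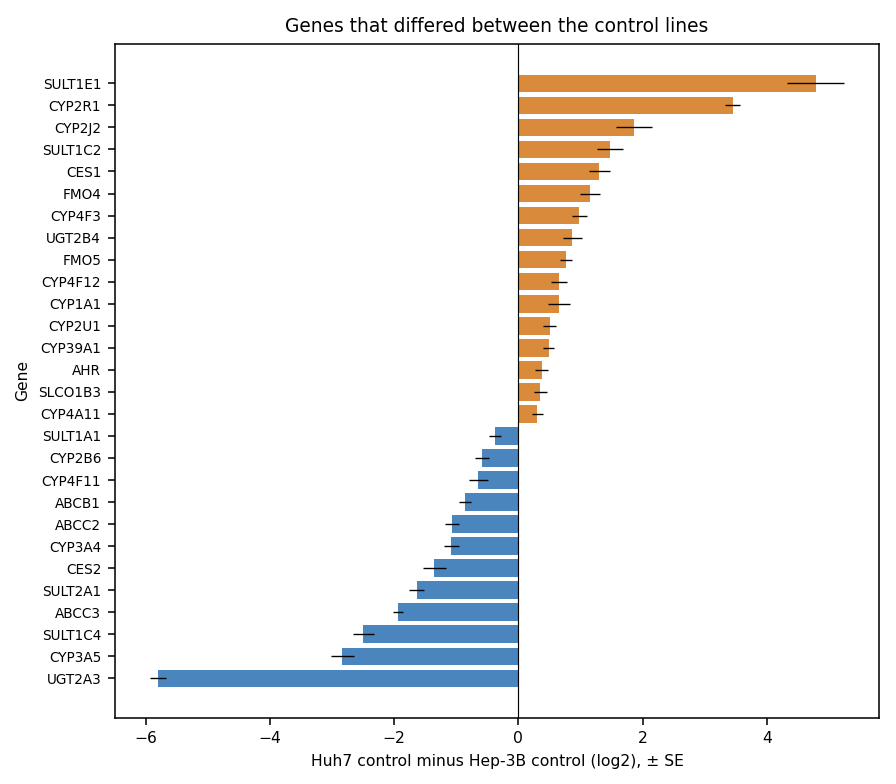
Huh7 control minus Hep-3B control difference (horizontal axis, log2, bars of 1 SE from limma) for the 28 genes called between the control lines (vertical axis). UGT2A3 lies at -5.81 and CYP3A5 at -2.83 on the left, and SULT1E1 at 4.79 and CYP2R1 at 3.45 on the right.

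The rest of the pathway was read from a further list of 121 genes, of which 102 were measured. In Hep-3B 1 was called, the aldehyde oxidase AOX1 (0.82, SE 0.13, limma adjusted p = 0.0396). In Huh7 13 were higher and 3 lower. In either direction, these shares of 102 genes, 0.980% and 15.7%, lie near the 0.693% and 13.5% of all genes called in the same comparisons. By direction, the 13 higher and 3 lower of 102 in Huh7 stood against 5.75% higher and 7.73% lower of all genes. By the mean of both lines 18 were higher and 5 lower, 22.5% of the 102 genes, against 15.6% of all genes. NR0B2, a corepressor of nuclear receptors in bile acid metabolism, lay at 6.06 and 6.12 in Huh7 controls and at 8.21 and 7.92 after knockdown, and rose by 1.97 (SE 0.11, limma adjusted p = 0.000255). PAPSS2, which makes the sulfate donor used by the sulfotransferases, rose by 1.91 (SE 0.13, limma adjusted p = 0.000453) from 6.64 and 6.65. UGDH, which makes the glucuronic acid donor, rose by 0.93 (SE 0.10, limma adjusted p = 0.00194). CEBPB, a transcription factor of liver genes, fell by 1.08 in Huh7. Its Hep-3B difference was about as large (-0.999) and not called. In Huh7 TIPARP, a target and repressor of AHR, fell by 0.70, and the aldehyde dehydrogenase ALDH3A1 fell by 0.47.

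By role, 0 of 18 other P450s were called in either line; limma gave 2 at an unadjusted p under 0.05 in Hep-3B and 6 in Huh7, and 1 was called by the mean of both lines. Of 24 enzymes of oxidation, reduction and hydrolysis 6 rose and 1 fell in Huh7, and of 29 conjugation genes 6 rose. Of all genes, 5.75% were called higher and 7.73% lower in that line. Of 12 regulators 1 rose and 2 fell in Huh7. By the mean of both lines limma called 7 of those 24, 8 of those 29, 6 of these 12 and 1 of 15 other transporters. The share of all genes called by that mean was 15.6%. Of the 15 other transporters 0 were called in a line, and limma gave 3 in Hep-3B and 2 in Huh7 at an unadjusted p under 0.05. Of the 4 electron donors to P450s 0 were called, with 1 and 0 at an unadjusted p under 0.05. NR0B2 (2.25, limma adjusted p = 0.00312), PAPSS2 (1.69, limma adjusted p = 0.00960) and UGT1A6 (0.93, limma adjusted p = 0.0408) differed between the lines in their response. UGT1A6 is a phenol glucuronosyltransferase that shares exons with other UGT1A genes. These were the 3 genes called of 102 (2.94%) in that contrast, where 1.26% of all genes were called.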

How the data were processed

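Gene expression was measured on Affymetrix arrays hybridised with biotin-labelled RNA from the 8 samples. The deposited log2 values came from Expression Console 1.2 (Affymetrix) with RMA, as the submitters' processing notes name them. RMA gives all arrays 1 distribution of intensities, so a change in total RNA per cell is not seen, and it shrinks changes of dim probe sets. The table held 54675 probe sets and no detection calls, and the number of arrays limits the precision. Probe sets were named through the platform annotation: 41097 had 1 gene symbol, 1801 several and 11777 none. Each gene was read from its brightest probe set with 1 symbol, which gave 19775 genes.

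A mean was fitted for each of the 4 groups with limma 3.58.1 (lmFit and eBayes) in R 4.3.3, without covariates. Contrasts gave the knockdown difference in each line, their mean, their gap, and the difference between control lines. The 19775 p-values of a contrast were adjusted together (Benjamini-Hochberg), with calls at an adjusted p under 0.05. The code was tested on simulated data. Whether replicates were separate cultures is not given in the labels; p-values therefore reflect the spread among these arrays alone, and that spread may be technical. Samples were grouped by their titles. No batch was given in the labels.

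The genes followed, the related list and the motifs were chosen with earlier results of these data known. Named with all values were genes called in any knockdown contrast, the receptors, and up to 8 genes in each direction between control lines; of the related list, up to 3 genes in each line and direction, with UGT1A6 and the called cell type markers chosen after their values were seen. Other genes are given by differences and counts. Promoter windows came from RefSeq, GRCh38.p14, and matched 42 of the 53 genes by symbol. Alternatives tried were normalization, filters, choice of probe sets, array weights, the variance prior, a replicate block, separate fits of each line and leaving out each array.

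Replicate numbers did not pair the samples: deviations of same-numbered arrays correlated at -0.07 in Hep-3B and 0.06 in Huh7 over all genes.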

Additional observations from a re-analysis of the deposited data

Results flagged for a closer look

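The knockdown differences of 3 genes differed between Hep-3B and Huh7 by a limma test of the difference itself, each as Huh7 minus Hep-3B. SULT1C4 differed by 1.54 (adjusted p = 0.0349), but its Huh7 arrays were near the bottom of the scale, where a fall could hardly have been seen. CYP4F2 differed by -1.34 (adjusted p = 0.0449), with a rise in 2 of 2 Hep-3B knockdown arrays. UGT2B4 differed by -1.29 (adjusted p = 0.0396), with both knockdown arrays above the controls in Hep-3B and below them in Huh7. When 1 array was left out, these adjusted p-values ranged from 0.0184 to 0.153, from 0.0133 to 0.181 and from 0.0238 to 0.159.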

How the results depend on the processing

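With 2 arrays a group the Hep-3B calls rested on single arrays and on a spread shared with Huh7. Over the omissions of 1 array the genes of the set called ranged from 0 to 14 in Hep-3B, 3 to 12 in Huh7, 9 to 20 by the mean of both lines, 0 to 4 in the gap between lines and 21 to 29 between control lines. Fitted alone, Hep-3B gave 0 calls (21 genes at an unadjusted limma p under 0.05) and Huh7 gave 8. With an intensity trend and robust prior Hep-3B gave 13, and with all probe sets of a gene averaged the gap gave 5. Among all genes, Hep-3B calls numbered 137, against 850 with that prior, 671 with array weights, 423 with the replicate block, 234 with dim genes left out, 623 probe sets when each was tested, and 0 when fitted alone. The gap between lines gave 249 calls among all genes, against 560 with that prior and 510 probe sets; between control lines 14085 probe sets were called, against 6457 genes, and in Huh7 4643 probe sets against 2666 genes and 1578 genes when fitted alone, and by the mean 5507 against 3089. The replicate block, by numbers for which no pairing was seen, gave 10, 11, 16, 4 and 26 genes of the set in the order above. Without probe sets of the suffixes _x_at and _s_at CYP3A4 turned to -0.01 in Hep-3B and to 0.02 between control lines. Leaving out 1 array also moved the number of all genes called. The cause of these shifts was not tested. A further quantile normalization or median centring left each count within 1.5 times its value.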
